A study of Homo sapiens with 17 samples.

Results

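The genes described here are 8 keratins (KRT7, KRT8, KRT18, KRT19, KRT23, KRT80, KRT81 and KRT86) and FLG, which encodes filaggrin. They are 9 of the 27315 rows of the deposited table, matched by symbol. They were selected on their measured levels in the 6 groups, with earlier results of these same libraries in view. Their levels and differences are therefore a description, and no p-value is given for them. A filter on low values, set at a mean of 6.14 over the 17 libraries, was passed by 12484 genes and by 7 of the 9. KRT7 lay closest inside that line, and KRT23 and KRT86 lay outside it.

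RNA was sequenced from 786-O, an established line of clear cell kidney cancer that lacks functional VHL. All cells had been infected with a pLenti CRISPR-V2 lentivirus, which carries Cas9 and a guide RNA, and selected with antibiotic. No clone is named in the labels. HIF2a_sg4, HIF2a_sg6 and HIF2a_sgscr (a scrambled guide, the control) had 3 libraries each, as had USP37_sg3 and USP37_sg9, and USP37_sgscr, the control of the USP37 guides, had 2. HIF2a is the protein of EPAS1, the oxygen-regulated transcription factor that accumulates without VHL, and USP37 is a deubiquitinase. The labels do not say whether libraries of a group came from separate cultures, so their spread may be technical. Every value below is the authors' variance-stabilised, batch-corrected value, on a log2-like scale with a floor at 5.14. Sequencing depth is unknown and the scale is not corrected for gene length, so levels are compared between groups for a gene and never between genes. Near the floor, differences are understated. EPAS1 was 1.97 lower (SE 0.10, limma adjusted p = 2.21e-12) with its guides and USP37 was 1.00 lower (SE 0.14, limma adjusted p = 1.22e-05) with its own. Neither target was lower with its own guides alone: EPAS1 fell with the USP37 guides (-0.72, SE 0.12, limma adjusted p = 6.6e-05) and USP37 with the HIF2a guides (-0.44, SE 0.12, limma adjusted p = 0.00903). Renal markers that passed the filter included PAX8, PAX2, LHX1, CDH6, CDH16 and CUBN, and LRP2, NDUFA4L2 and CA9 did not pass it. Of the keratinocyte markers only KRT10 passed (8 of 9 did not), of the hair follicle markers 0 of 5, and of the leukocyte markers 0 of 5. LUM and COL1A1 were the fibroblast markers that passed and SOX2 the only one of 5 listed for 293T cells. The mean over the 5 fibroblast markers was 6.32 to 6.51 in the HIF2a control libraries and 5.70 to 5.86 with the HIF2a guides, against 5.93 to 6.12 across the USP37 experiment. The mean over the 9 keratinocyte markers reached 6.08 in a HIF2a control library (5.73 to 6.08 in that group) and at most 5.92 elsewhere. The mean over the 5 leukocyte markers was 5.27 and 5.80 in the USP37 control libraries and at most 5.47 elsewhere, with CD3E up to 6.78 and PTPRC up to 6.68 in their highest libraries. The part of these marker levels in the results below was not tested.

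Keratins are the intermediate filament proteins of epithelial cells. A filament is built from heterodimers of a type I (acidic) and a type II (basic) keratin, so the cell needs partners from both classes. KRT8 and KRT18 are the first pair of simple epithelia, and KRT7 and KRT19 join them in ducts and tubules. KRT81 and KRT86 are type II keratins of the hair cortex that also appear in carcinoma cells. Filaggrin is made in the granular layer of the epidermis as a long profilaggrin that is cut into repeats which bundle keratin filaments. Because these are bulk RNA measurements, fewer cells with a transcript and less transcript per cell cannot be told apart.

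FLG had its highest level in the HIF2a control and its lowest with the HIF2a guides. KRT81 had its highest level with the USP37 guides, and KRT19 and KRT7 had their lowest in the HIF2a control. KRT8, KRT18 and KRT80 had their lowest in the USP37 control. In the fit over all genes, 5 of the 7 genes above the filter were called with the HIF2a guides (3 higher, 2 lower), where 30.6% of all tested genes were called (16.1% higher, 14.5% lower). In the USP37 experiment 6 of 7 were called, all higher, against 44.3% of all tested genes (22.4% higher). Between the controls 7 of 7 were called, against 40.5%. For 6 of 7 the difference between the 2 guide effects was called, against 38.6%. All guide libraries lay on one side of the control libraries for 4 of 7 in the HIF2a experiment (25.2% of all tested genes) and 5 of 7 in the USP37 experiment (41.2%), and the controls did not overlap for 7 of 7 (62.6%). Since the genes were chosen with these differences known, nothing is read from these shares. The median of the 7 differences was -0.04 with the HIF2a guides and 0.66 with the USP37 guides, where the medians over all tested genes were -0.0045 and 0.0060.

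**Figure D1:**
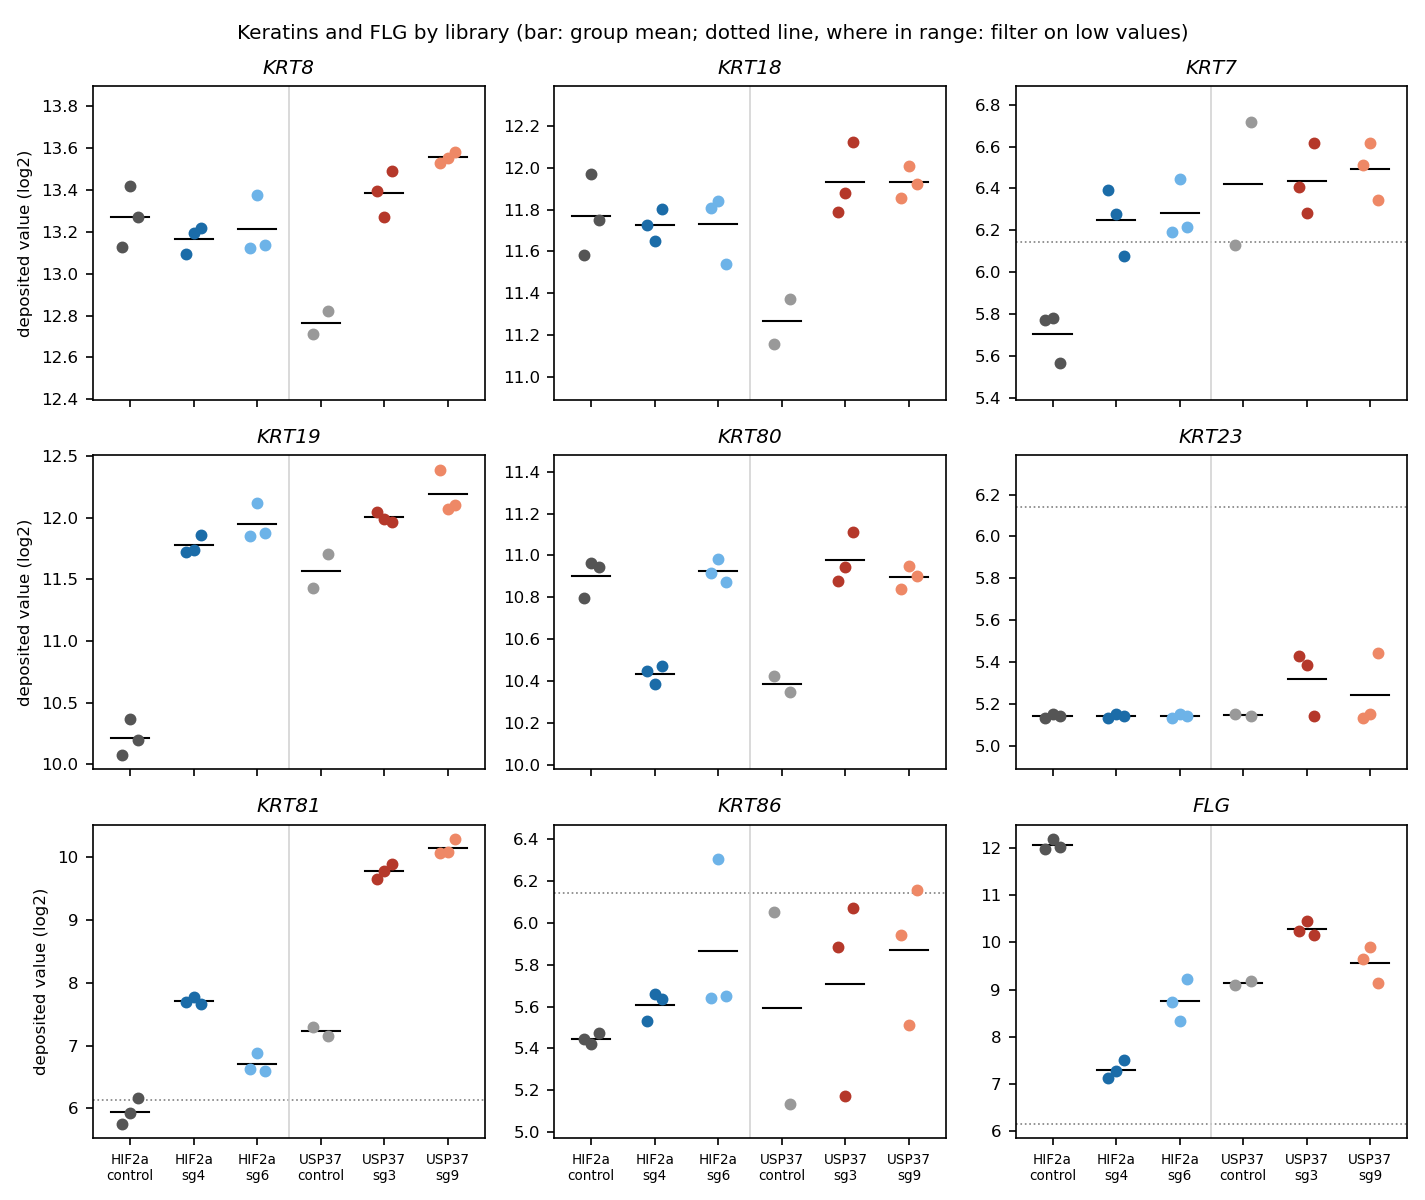
Each point is a library, the y axis is the deposited value (log2) and the black bar is the group mean, with 1 panel per gene and its own y axis. FLG is highest in the HIF2a control (mean 12.07), KRT81 highest with USP37 sg9 (mean 10.15), and KRT8 and KRT18 lowest in the USP37 control (means 12.77 and 11.27).

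KRT8 and KRT18, the partners that form the filaments of simple epithelia, had similar patterns across the libraries. KRT8 was 13.13, 13.42 and 13.27 in the HIF2a control, 13.09, 13.19 and 13.22 with sg4 and 13.12, 13.38 and 13.14 with sg6. These 3 groups overlapped. In the USP37 experiment KRT8 was 12.71 and 12.82 in the control, 13.40, 13.27 and 13.49 with sg3 and 13.53, 13.56 and 13.58 with sg9. The USP37 control lay below every other library of the series, and sg3 overlapped the HIF2a control. The difference from control was 0.70 (SE 0.09) with the USP37 guides and -0.08 (SE 0.08) with the HIF2a guides. Between the controls (USP37 minus HIF2a) it was -0.51 (SE 0.10).

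KRT18 had the same lowest group. It was 11.58, 11.97 and 11.75 in the HIF2a control, 11.73, 11.65 and 11.80 with sg4 and 11.81, 11.84 and 11.54 with sg6. Of the USP37 libraries, KRT18 was at 11.16 and 11.37 in the control, 11.79, 11.88 and 12.12 with sg3 and 11.86, 12.01 and 11.92 with sg9. Only the 2 USP37 control libraries stood apart, and all neighbours above them in the order of group means overlapped. The USP37 guides were 0.66 (SE 0.11) above their control, the HIF2a guides were at -0.04 (SE 0.09) from theirs, and the controls (USP37 minus HIF2a) differed by -0.50 (SE 0.12). Over the 17 libraries KRT8 and KRT18 had a Pearson r of 0.90, and their deviations from the group means an r of 0.72, as a description of libraries that share processing and the removed replicate term. The same figures were 0.71 and 0.77 for KRT18 with KRT80, 0.72 and 0.59 for KRT8 with KRT80, and 0.24 and 0.62 for KRT8 with KRT19. Within groups the r of KRT18 was thus no lower with KRT80 than with KRT8. No USP37 control library is numbered 1, and that control was the lowest group for KRT8, KRT18 and KRT80. The removed replicate term can therefore have shifted the deviations of these genes together. Its part in the within-group r was not tested.

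**Figure D2:**
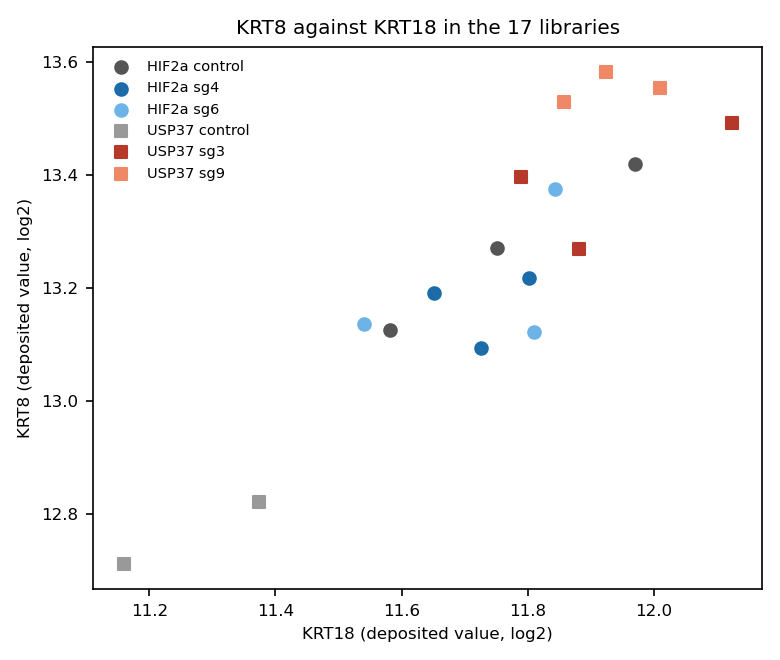
Each point is 1 of the 17 libraries, with the KRT18 value on the x axis and the KRT8 value on the y axis (both log2), circles for the HIF2a experiment and squares for the USP37 experiment. The 2 USP37 control libraries sit at the lower left, at 12.71 and 12.82 for KRT8, apart from the other libraries.

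KRT80, a type II keratin of several epithelia, shared the low USP37 control and differed between the HIF2a guides. It was 10.43 and 10.35 in the USP37 control, against 10.88, 10.94 and 11.11 with sg3 and 10.84, 10.95 and 10.90 with sg9. In the HIF2a experiment it was 10.80, 10.96 and 10.95 in the control, 10.45, 10.38 and 10.47 with sg4 and 10.92, 10.98 and 10.87 with sg6. All 3 sg4 libraries lay below the control and sg6 overlapped it. The model difference was -0.47 (SE 0.08) for sg4 and 0.02 (SE 0.08) for sg6, and 0.49 (SE 0.08) between them. Both HIF2a guides together gave -0.22 (SE 0.07), and this call was lost in 4 of the 26 alternatives, among them those without HIF2a control library 2 or 3. With the USP37 guides it was 0.55 (SE 0.08).

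KRT19, the type I keratin that lacks a tail domain and marks ducts and tubules, was low in a single group, the HIF2a control. Its values there were 10.08, 10.37 and 10.20, against 11.72, 11.74 and 11.86 with sg4 and 11.85, 12.12 and 11.87 with sg6. The USP37 control was at 11.43 and 11.70, sg3 at 12.05, 11.99 and 11.97 and sg9 at 12.39, 12.07 and 12.10. Every other library of the series lay above the HIF2a control. The difference was 1.65 (SE 0.09) for the HIF2a guides and 0.53 (SE 0.10) for the USP37 guides, and the USP37 control was 1.35 (SE 0.12) above the HIF2a control. Without USP37 control library 2 the USP37 difference was 0.39, and without library 3 it was 0.67.

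KRT7, the type II keratin usually found with KRT19, had the same low group at a level near the floor. It was 5.77, 5.78 and 5.56 in the HIF2a control, 6.39, 6.28 and 6.08 with sg4 and 6.19, 6.45 and 6.21 with sg6. The USP37 control was spread from 6.13 to 6.72 and covered both of its guide groups, at 6.28 to 6.62 with sg3 and 6.35 to 6.62 with sg9. The difference was 0.56 (SE 0.14) with the HIF2a guides and 0.04 (SE 0.16) with the USP37 guides. The latter was -0.25 without USP37 control library 2 and 0.33 without library 3. The USP37 control was 0.72 (SE 0.17) above the HIF2a control. KRT7 and KRT19 had an r of 0.85 over the 17 libraries and of 0.36 within groups. KRT23, a further type I keratin, stayed at 5.13 to 5.15 in the HIF2a experiment and the USP37 control, and its highest library was at 5.44 with sg9.

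**Figure D3:**
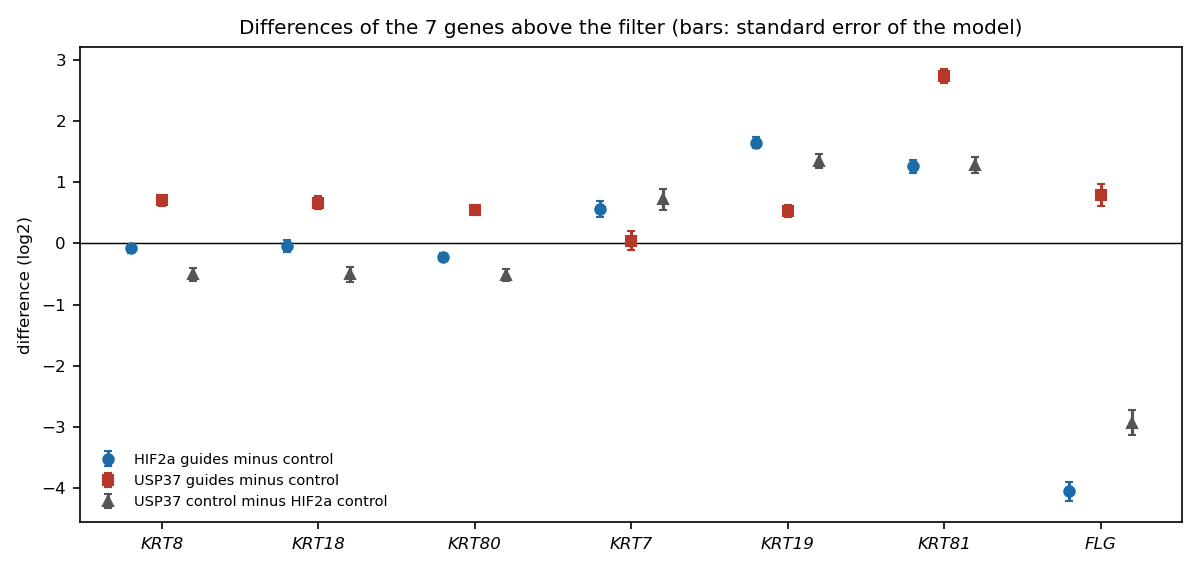
The y axis is the model difference (log2) of the 7 genes above the filter, with the standard error as bar, for the HIF2a guides, the USP37 guides and the USP37 control minus the HIF2a control. For KRT8, KRT18 and KRT80 the controls differ by about -0.5 (-0.51, -0.50 and -0.52) while the USP37 guides are at 0.70, 0.66 and 0.55, and for FLG the HIF2a guides are at -4.05 and the controls at -2.93.

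The hair-type keratins KRT81 and KRT86 are near-identical in part of their coding sequence, which bears on how reads could be assigned. In GENCODE release 29 their longest coding sequences were 89.6% identical and shared an unbroken run of 605 bases. Of all 150-base windows of the KRT81 coding sequence, 33.3% occurred unchanged in KRT86, and 34.8% of those of KRT86 occurred in KRT81. The first stretch below, coding bases 304 to 423 in both, lies in the middle of the shared run and cannot tell the genes apart. The second, coding bases 1207 to 1326 in both, is the least alike stretch of 120 bases without a gap, with 19 differing bases in capitals.
KRT81, shared run: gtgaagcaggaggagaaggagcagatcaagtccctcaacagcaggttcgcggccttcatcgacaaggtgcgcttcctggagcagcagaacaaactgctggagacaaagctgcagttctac
KRT86, shared run: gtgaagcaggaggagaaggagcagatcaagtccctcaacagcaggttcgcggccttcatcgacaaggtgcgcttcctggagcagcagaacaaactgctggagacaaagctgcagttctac
KRT81, least alike: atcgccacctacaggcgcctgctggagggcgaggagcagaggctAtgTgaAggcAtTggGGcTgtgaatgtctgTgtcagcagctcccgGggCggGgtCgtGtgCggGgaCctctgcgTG
KRT86, least alike: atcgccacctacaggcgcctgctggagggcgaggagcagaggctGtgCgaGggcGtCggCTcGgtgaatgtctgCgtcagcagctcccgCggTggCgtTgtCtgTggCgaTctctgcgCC

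KRT81 had the widest range of group means of any keratin here, 4.20, and its groups did not overlap at any step of their order. From the lowest group up, it was 5.75, 5.93 and 6.16 in the HIF2a control, 6.63, 6.88 and 6.60 with HIF2a sg6, 7.30 and 7.15 in the USP37 control and 7.69, 7.78 and 7.67 with HIF2a sg4. The highest values were 9.65, 9.78 and 9.89 with USP37 sg3 and 10.07, 10.08 and 10.29 with USP37 sg9. Against their controls the USP37 guides were 2.73 (SE 0.12) higher and the HIF2a guides 1.26 (SE 0.10) higher. The HIF2a control lay near the floor, where differences are understated, so these sizes are not ranked. Within the HIF2a experiment sg4 was 1.77 (SE 0.12) and sg6 0.75 (SE 0.12) above the control. USP37 sg9 exceeded sg3 by 0.37 (SE 0.12). The USP37 control was 1.28 (SE 0.13) above the HIF2a control, so with either as reference the USP37 guides stood higher.

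KRT86 stayed near the floor in every group. Its lowest library was at 5.13, in the USP37 control, and its highest at 6.31, with HIF2a sg6. The USP37 control libraries were at 6.05 and 5.13 and so spanned most of that range, and no group of the USP37 experiment stood clear of another. In the HIF2a experiment both guide groups lay above the control libraries at 5.42 to 5.48, with 5.53 to 5.66 for sg4 and 5.64, 6.31 and 5.65 for sg6. Only the second sg6 library stood clear of the sg4 range. Reads from the shared run could have been split between the genes, and the authors' rule for assigning them is not given in the sources used here. Among close relatives, KRT83 and KRT85 did not exceed 5.49 and 5.14 in any library.

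FLG carried the largest differences. It was 11.98, 12.20 and 12.03 in the HIF2a control, 7.11, 7.26 and 7.50 with sg4 and 8.73, 8.33 and 9.22 with sg6. All 6 guide libraries lay far under the 3 control libraries and sg4 lay under sg6. FLG was 9.10 and 9.19 in the USP37 control, 10.25, 10.45 and 10.17 with sg3 and 9.64, 9.91 and 9.15 with sg9. Here sg3 lay above the control and sg9 overlapped it. The model difference was -4.78 (SE 0.18) for sg4, -3.31 (SE 0.18) for sg6 and -4.05 (SE 0.16) for their mean. It was 1.15 (SE 0.20) for USP37 sg3, 0.42 (SE 0.20) for sg9 and 0.78 (SE 0.18) for their mean. The controls themselves (USP37 minus HIF2a) differed by -2.93 (SE 0.20). Both HIF2a guide means, 7.29 with sg4 and 8.76 with sg6, were under the USP37 control mean of 9.14, and sg6 overlapped that control with its highest library.

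The 250 bases before the FLG start site are shown because FLG had its lowest values with guides against a DNA-binding factor. They are from RefSeq, build GRCh38.p14, chr1:152325240-152325489, minus strand, which is not the hg19 build of the authors' processing notes. Capitals mark ACGTG, the core that HIF factors bind, searched with GCGTG on both strands.
FLG, 250 bases upstream: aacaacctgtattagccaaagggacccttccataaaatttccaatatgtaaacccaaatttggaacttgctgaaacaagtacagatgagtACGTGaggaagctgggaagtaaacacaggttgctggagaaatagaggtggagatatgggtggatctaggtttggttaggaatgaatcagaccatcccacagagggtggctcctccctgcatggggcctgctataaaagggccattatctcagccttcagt
The ACGTG begins 160 bases before the start site, and no GCGTG was found. Of 27305 promoters with a window of this length, 18.7% held ACGTG and 31.9% held GCGTG, so a match is common and describes the letters only. TATAAA, searched on both strands, was also present in FLG and in 11.1% of the promoters, and TGAGTCA, the AP-1 motif, was not found in it (4.16% of the promoters held it). No matches overlapped in FLG. Of the 9 genes, 2 had an entry in the promoter table, and the KRT8 window held none of the 4 motifs.

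Sequence shared with other genes reached further than the hair keratins. Of all 31-base words of the coding sequence, 80.8% in KRT18 and 68.2% in KRT8 occurred in a transcript of another gene on either strand, mostly pseudogenes of KRT8 and KRT18. At the read length of 150 bases the share was 0% for KRT8, and 13.5% for KRT18, whose windows were found on the opposite strand of a KRT8 transcript. For FLG the share was 3.58%, all of it on the opposite strand of FLG-AS1, and for KRT7 it was 6.11%, in KRT7-AS. The TruSeq RNA v2 kit does not mark strand, so reads from these overlaps cannot be told apart. FLG-AS1 was 7.09 to 7.41 in the HIF2a control and 5.91 to 6.29 with both HIF2a guides, and fell by 1.16 (SE 0.13, limma adjusted p = 2.98e-07). It was not called with the USP37 guides (-0.06, SE 0.15, limma adjusted p = 0.781), and the USP37 control was lower than the HIF2a control (-0.88, limma adjusted p = 0.000251).

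The tested neighbours on the chromosome were taken in RefSeq order by a rule set after the values were seen. Around FLG and the type II keratin cluster they differed in direction among themselves. FLG-AS1, which overlaps FLG and fell with the HIF2a guides (-1.16), was not among the neighbours taken. The 5 around KRT23 and KRT19 (KRT222, KRT10, KRT15, EIF1 and JUP) were at 0.08 to 1.32 with the HIF2a guides. Of these only JUP was called (1.32, SE 0.17, limma adjusted p = 2.22e-06), in the same direction as KRT19. With the USP37 guides they ran from -0.93 (JUP) to 1.10 (KRT15). Around FLG, S100A10 (-0.47) and S100A11 (-0.53) were lower and S100A6 (0.67) higher with the HIF2a guides (limma adjusted p from 0.00176 to 0.00548). S100A3 was at 0.0033 (limma adjusted p = 0.985). All 4 encode proteins of the S100 family. Beside the type II keratin cluster TNS2, which encodes tensin 2, fell with the HIF2a guides (-1.03, SE 0.10, limma adjusted p = 5.93e-08), and NR4A1, ATG101 and EIF4B were not called (0.15, -0.05 and -0.16, limma adjusted p from 0.0952 to 0.8). With the USP37 guides TNS2 was at -0.28 (limma adjusted p = 0.0598), the nuclear receptor NR4A1 was at -0.46 (limma adjusted p = 0.0178), the autophagy factor ATG101 at 0.41 (limma adjusted p = 0.0121) and the translation factor EIF4B at -0.14 (limma adjusted p = 0.17).

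The genes whose values followed each member most closely over the 17 libraries were taken as the 2 highest Pearson r among 12477 tested genes. FLG was followed by ALPK3, an alpha-kinase of muscle (r = 0.95), and the integrin subunit ITGB8 (r = 0.93), which were at -2.22 and -1.83 with the HIF2a guides and at 0.19 and 0.28 with the USP37 guides. KRT81 was followed by TRNP1 (r = 0.98) and the protease PRSS23 (r = 0.97), and 150 genes exceeded an r of 0.9 with it. KRT19 was followed by the proteoglycan SRGN (r = 0.96) and by MIF4GD (r = 0.95), and SRGN had the same low group, with 7.78 ± 0.10 (SD, n = 3) in the HIF2a control and 9.20 ± 0.10 (SD, n = 2) in the USP37 control. KRT18 had RBM14 (r = 0.95) and POLR1E (r = 0.92), KRT8 had BRMS1 and TRMT61A (both r = 0.92), KRT7 had PRKCH (r = 0.91) and BPGM (r = 0.90), and KRT80 had AMOTL2 and RABEP2 (both r = 0.89).

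Most other keratins were under the filter, and 7 of 21 further type II and 13 of 26 further type I keratins were at the floor in every library. Others varied above the floor, KRT78 up to 6.57 and KRT14 up to 6.37. Of the 21 further type II keratins only KRT79 passed the filter, and of 26 further type I keratins KRT10, KRT15 and KRT222. KRT15, a type I keratin of basal cells, rose with the USP37 guides by 1.10 (SE 0.16, limma adjusted p = 1.22e-05), with values of 6.11 and 6.23 in the control, up to 7.52 with sg3 (mean 7.25) and 7.25 to 7.38 with sg9. It was at 0.15 with the HIF2a guides (limma adjusted p = 0.432), the control groups differed by -0.03 (limma adjusted p = 0.912), and the difference between experiments was 0.95 (limma adjusted p = 0.00113). KRT79, a type II keratin of the hair follicle opening, fell with the HIF2a guides by 0.65 (SE 0.13, limma adjusted p = 0.000751), all 6 guide libraries lying under the control. KRT10, the suprabasal partner of KRT1, was at 0.69 with the USP37 guides (SE 0.25, limma adjusted p = 0.033), carried by sg9 (1.32) and not sg3 (0.05), and the call was lost in 5 of 26 alternatives, among them those without either control library (adjusted p = 0.141 each). Its libraries spread from 8.32 to 9.68 within the HIF2a control.

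Relatives of filaggrin were not expressed above the filter. None of the 41 listed genes of the epidermal differentiation complex and cornified envelope passed it, FLG2, HRNR, TCHH, IVL and LOR among them, and the highest library of any was 6.53, in CDSN. Of 20 genes listed for filaggrin processing or cross-linking of the envelope, 7 passed. With the HIF2a guides the deiminases PADI3 (0.68) and PADI1 (0.39) and the calpain CAPN1 (0.34) were higher. FURIN, a convertase that cuts profilaggrin, was lower (-0.39), with limma adjusted p from 0.000134 to 0.0484 over these genes. Between the controls (USP37 minus HIF2a) PADI3 was at 0.83 and FURIN at -0.33 (limma adjusted p = 0.000237 and 0.00536), the directions of their HIF2a differences. PADI1 and CAPN1 gave no call there (-0.05 and -0.06, limma adjusted p = 0.861 and 0.609). The PADI1 call was lost in 14 of 25 alternatives, and its difference was 0.21 without HIF2a control library 2. In the USP37 experiment PADI1 (0.87), TMEM79 (0.52) and FURIN (0.49) rose and the transglutaminase TGM2 fell (-0.55), with limma adjusted p from 2.65e-05 to 0.00533. TMEM79 lost its call without USP37 control library 3 (adjusted p = 0.0676).

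**Figure D4:**
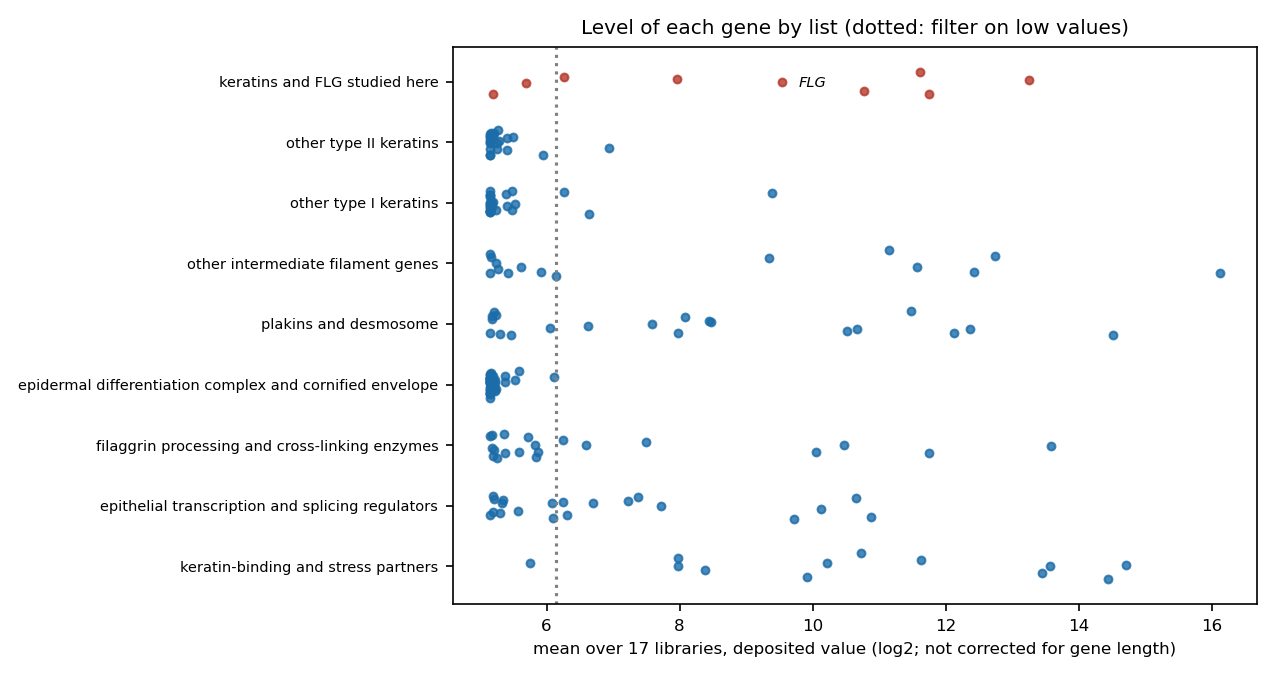
Each point is a gene, the x axis is its mean deposited value (log2) over the 17 libraries, and each row is a gene list, with the keratins and FLG in red. Values are not per gene length and are read only against the dotted filter at 6.14, which 0 of 41 genes of the epidermal differentiation complex list pass and 7 of the 9 keratins and FLG pass.

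Desmosomes and plakins, which anchor keratin filaments, changed in opposite directions in several members. Of 20 listed genes 12 passed the filter. With the HIF2a guides 5 were higher and 1 lower, and with the USP37 guides 1 was higher and 7 lower. Desmoplakin (DSP), which ties keratins to the desmosome, was 8.85 to 9.12 in the HIF2a control, 6.67 to 7.06 with sg4 and 5.46 to 5.82 with sg6. The difference was -2.77 (SE 0.12, limma adjusted p = 6.36e-14). The sg6 values lay near the floor, where differences are understated. Between the controls (USP37 minus HIF2a) DSP was at -0.45 (limma adjusted p = 0.0201), the direction of its HIF2a difference. USP37 guides put DSP at -0.69 (SE 0.13, limma adjusted p = 0.00032), called with sg9 (-1.01) and not with sg3 (-0.37, limma adjusted p = 0.0606).

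Periplakin (PPL), plakoglobin (JUP) and desmocollin 2 (DSC2) rose with the HIF2a guides by 1.78, 1.32 and 1.12 (limma adjusted p from 9.5e-09 to 2.22e-06). PPL was 5.54 to 6.08 in the HIF2a control, near the floor, where differences are understated. It was 7.26 to 7.37 with sg4 and 7.41 to 8.04 with sg6. JUP was 7.57 to 7.98 in the HIF2a control, 8.62 to 8.96 with sg4 and 8.86 to 9.65 with sg6. In the USP37 experiment JUP fell to 6.62 to 7.24 (sg3) and 6.80 to 7.33 (sg9) from 7.78 and 8.16 (difference -0.93, SE 0.19, limma adjusted p = 0.000574), and DSC2 fell by 0.95 (SE 0.13, limma adjusted p = 8.14e-06). Between the controls JUP and DSC2 gave no call (0.25 and -0.04, limma adjusted p = 0.36 and 0.855). PPL did, at 0.94 (limma adjusted p = 0.000844), the direction of its HIF2a difference, and was at -0.48 with the USP37 guides (limma adjusted p = 0.035). PERP, a desmosomal membrane protein, fell with the USP37 guides (-0.67, limma adjusted p = 8.15e-06). Plectin (PLEC) was at 0.89 with the USP37 guides (limma adjusted p = 0.000597), and the USP37 control differed from the HIF2a control by -1.68 (limma adjusted p = 2.85e-06). With the HIF2a guides PLEC was not called (-0.09, limma adjusted p = 0.712).

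**Figure D5:**
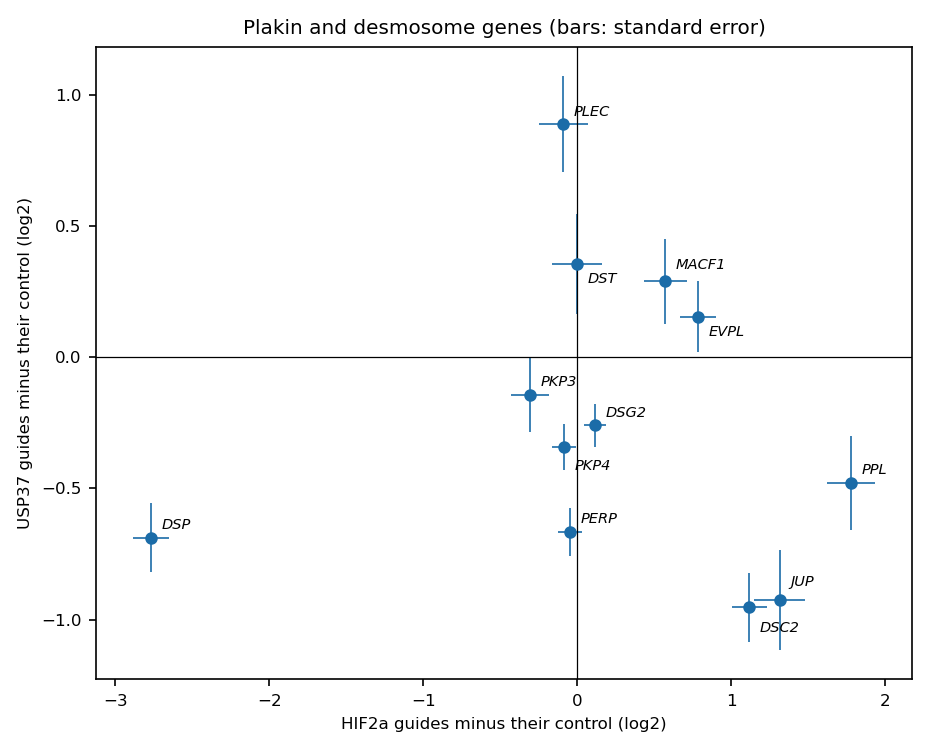
Each point is 1 of the 12 plakin and desmosome genes above the filter, with the HIF2a difference on the x axis and the USP37 difference on the y axis (log2, bars are standard errors, each against its own control). DSP lies at -2.77 and -0.69, and JUP, DSC2 and PPL lie at lower right, higher with the HIF2a guides and lower with the USP37 guides.

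Among the other intermediate filament genes, 6 of 15 passed the filter, with 0 higher and 4 lower with the HIF2a guides and 2 higher and 1 lower with the USP37 guides. The neurofilament NEFL fell in both (-0.70 and -0.68, limma adjusted p = 8.52e-07 and 9.77e-06). Vimentin (VIM), the mesenchymal filament that these cells coexpress with keratins, rose with the USP37 guides by 0.45 (SE 0.10, limma adjusted p = 0.000821), and by 0.20 with quantile normalisation. With the HIF2a guides its difference of -0.23 (SE 0.08) passed the threshold (limma adjusted p = 0.0371), but not in 11 of 26 alternatives. It was -0.14 without HIF2a control library 2 and -0.42 with quantile normalisation. The lamins LMNB1 (-0.32) and LMNB2 (-0.25) were lower with the HIF2a guides (limma adjusted p = 0.00609 and 0.024). LMNB2 lost its call in 4 of 26 alternatives and LMNB1 without HIF2a control library 3 (adjusted p = 0.0597). Both were called with sg6 (-0.50 and -0.30, limma adjusted p = 0.000547 and 0.0215). Neither was called with sg4 (-0.14 and -0.20, limma adjusted p = 0.308 and 0.126). Between the controls (USP37 minus HIF2a) LMNB1 was at -0.39 and LMNB2 at -0.88 (limma adjusted p = 0.00774 and 2.27e-06), the direction of their HIF2a differences. SYNM, which encodes synemin, was at 0.57 with the USP37 guides (limma adjusted p = 0.00195), and its control there was lower than the HIF2a control (-0.92). SYNM was called with sg3 (0.79, limma adjusted p = 0.000421) and not with sg9 (0.35, limma adjusted p = 0.0628).

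Epithelial regulators passed the filter in 10 of 20 cases, with 4 higher and 3 lower with the HIF2a guides and 1 higher and 4 lower with the USP37 guides. TP63, GRHL2, GRHL3, OVOL1, OVOL2, ESRP1 and ESRP2 were under it. With the HIF2a guides CEBPB (0.66) and TFAP2A (0.64) rose and JUNB (-0.73) and KLF5 (-0.63) fell (limma adjusted p from 1.27e-06 to 7.98e-05). Between the controls (USP37 minus HIF2a) TFAP2A was at 0.69 and JUNB at -0.60 (limma adjusted p = 0.000497 and 0.000335), the directions of their HIF2a differences. CEBPB and KLF5 gave no call there (0.12 and -0.24, limma adjusted p = 0.382 and 0.138). With the USP37 guides CEBPB was at -0.40 (limma adjusted p = 0.00159), called with sg3 (-0.80) and not with sg9 (0.0090). In the USP37 experiment FOSL1, an AP-1 subunit, rose by 1.23 and the epithelial ETS factor ELF3 (-1.001), JUNB (-0.59) and TFAP2A (-0.44) fell (limma adjusted p from 9.1e-08 to 0.00675). The TFAP2A call was lost without USP37 control library 2 (adjusted p = 0.0617).

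Of 12 genes listed as keratin-binding or stress partners, 11 passed the filter. With the HIF2a guides 2 were higher and 0 lower, and with the USP37 guides 6 were higher and 1 lower. TRIM2 (0.54) and TRADD (0.43), an adaptor that binds KRT18, were higher with the HIF2a guides (limma adjusted p = 0.0045 and 0.0264). TRADD lost its call in 5 of 26 alternatives, and was at 0.19 without HIF2a control library 2. In the USP37 experiment the chaperone HSPA8 (0.82), the trichoplein gene TCHP (0.53) and YWHAZ (0.46) rose and TRIM2 fell (-0.65), with limma adjusted p from 2.49e-05 to 0.00225. TCHP was at 0.30 (adjusted p = 0.147) and TRIM2 at -0.46 (adjusted p = 0.097) without USP37 control library 2. Over all 8 lists, 24 of 50 tested genes (48%) were called with the HIF2a guides and 29 of 50 (58%) with the USP37 guides. Of all tested genes, 30.6% and 44.3% were called. Since the lists were chosen with earlier results of these data known, nothing is read from these shares.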

How the data were processed

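The authors deposited a table of variance-stabilised, batch-corrected values on a log2 scale for 17 libraries, per the file headers. Build hg19 and the tools DESeq2, Salmon, cutadapt and STAR (2.5.2b) stand in the submitters' processing notes without roles. The batch variable is not given in the sources used here, but the means of the libraries numbered 1, 2 and 3 were equal for every gene (within 6.39e-14), so a replicate term had been removed. Counts cannot be recovered, so depth is unknown.

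Genes whose mean exceeded the floor (the 1st percentile of all gene means) by 1 or more were fitted with limma 3.58.1 in R 4.3.3 (6 group means, with a trend of the variance on the mean). The residual had 11 degrees of freedom, or 9 if the removed term is counted, so p-values tend to be too small. Adjusted p-values are Benjamini-Hochberg over 12484 genes within a contrast, and called means under 0.05. The fit was tested on simulated data. Alternatives were no filter or a stricter one, a replicate block, each experiment fitted alone, array weights, equalised medians, quantile normalisation, no variance trend, 3 outlying HIF2a libraries left out together and each library left out in turn. Comparisons of guides within an experiment share their control.

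The members and the 8 gene lists (175 genes) were chosen with earlier results of these data known. Named from each list were up to 4 called genes per experiment with the largest change, and VIM, DSP and PLEC always. PERP and the neighbouring genes were added after their values were seen. Coding sequences are GENCODE release 29, aligned with Biopython 1.88, and promoters RefSeq GRCh38.p14. The libraries differed within groups by a median of 0.0986 to 0.239. Libraries of different groups were not compared, and removal of a replicate term can make copies differ, so duplication was not excluded.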

Additional observations from a re-analysis of the deposited data

Results flagged for a closer look

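The effects of the USP37 and the HIF2a guides, each against its own control, differed by limma's test of that difference for 21 of the 30 named genes outside the keratins and FLG studied here. Values are the USP37 difference minus the HIF2a difference on the log2 scale, with limma adjusted p-values, and 38.6% of all tested genes passed the same test. The 30 genes had been named for called changes, the largest of their lists, in either or both experiments. This test reuses those values and controls, so a high count was built in and nothing is read from it against that share. The keratins and FLG are not listed here, because they were chosen with these differences known and their values are a description.

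Among plakin and desmosome genes the difference was 2.08 for DSP (adjusted p = 1.18e-08), -2.26 for PPL (adjusted p = 2.76e-07), -2.24 for JUP (adjusted p = 6.95e-07), -2.07 for DSC2 (adjusted p = 9.73e-09) and 0.98 for PLEC (adjusted p = 0.00327). For the filament genes it was 0.95 for KRT15 (adjusted p = 0.00113), 0.69 for KRT79 (adjusted p = 0.0108) and 0.68 for VIM (adjusted p = 0.000269). For the processing enzymes it was 0.88 for FURIN (adjusted p = 1.48e-06), -0.57 for PADI3 (adjusted p = 0.0163), -0.39 for TGM2 (adjusted p = 0.00796) and -0.37 for CAPN1 (adjusted p = 0.00773). For the epithelial regulators it was 1.71 for FOSL1 (adjusted p = 9.86e-08), -1.08 for TFAP2A (adjusted p = 2.87e-05), -1.05 for CEBPB (adjusted p = 1.06e-06), -1.05 for ELF3 (adjusted p = 1.67e-06) and 0.55 for KLF5 (adjusted p = 0.0075). For the listed keratin-binding and stress partners it was -1.19 for TRIM2 (adjusted p = 0.000142), 1.09 for HSPA8 (adjusted p = 2.47e-05), 0.60 for TCHP (adjusted p = 0.00784) and 0.52 for YWHAZ (adjusted p = 0.00104). Of the 30 genes, 9 were called in both experiments in opposite directions, JUP and DSC2 among them. The share of all tested genes with such opposite calls was not computed, and the 30 were chosen by their calls. Nothing is therefore read from this count.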

How the results depend on the processing

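The counts of called genes were 3819 (HIF2a guides) and 5525 (USP37 guides), and 24 and 29 within the gene lists. Leaving out each library gave 2653 to 3963, 3683 to 5854, 20 to 27 and 23 to 30, the 3683 without USP37 control library 2. Where 1 USP37 control library was left, its spread was taken from the pooled groups. With the replicate block the counts were 3321, 5069, 22 and 27. The labels do not tie the numbers across groups, and 1 of 17 libraries correlated best with its own number in values from which that term had been removed. The 14 differences of the keratins and FLG moved by more than the spread between libraries in 5 of 362 recomputations: KRT7 and KRT19 without either USP37 control library, as given above, and KRT8 with quantile normalisation (0.60 with the USP37 guides). The 41 results for other named genes kept their direction and call in 1012 of 1059 recomputations and lost the call in 44. PLEC with the HIF2a guides, which was not called, changed sign in 3: to 0.10 with array weights, to 0.0316 without HIF2a control library 2 and sg6 libraries 2 and 3, and, among the fits that left out 1 library (range -0.27 to 0.0920), to the highest of these without HIF2a control library 2. Depth is unknown, and levels near the floor limit KRT7, KRT23 and KRT86 most. They also limit the differences of KRT81 and PPL from the HIF2a control, and that of DSP with HIF2a sg6.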
